A study of Mus musculus with 48 samples.

Results

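CD11B+ cells were isolated magnetically from the brains of male mouse pups at postnatal day 5 (P5), and their RNA was measured on 1-colour whole-genome oligonucleotide arrays. The comparison used the 12 CD11B+ arrays of that age out of 48 in the series, 6 from pups given interleukin 1 beta (IL1B) and 6 from pups given phosphate-buffered saline (PBS), chosen by their labels alone. IL1B pups received 10 ng per g of body weight into the peritoneum, in a morning and an evening dose from postnatal day 1 to 4 and once more on day 5, and PBS pups had the vehicle on the same schedule. The labels name Swiss mice and 2 h between the last dose and death, whereas the study's methods name the OF1 stock and a longer interval. Per the methods, each sample pooled several brains without cerebellum and olfactory bulbs, and CD11B+ cells were taken from what remained after O4+ oligodendrocyte precursors had been removed from the same cell suspension. No genotype is labelled for any group. The other series groups used here for contrast were CD11B+ cells at P10, after the same 5 days of injections, and O4+ cells at P5, each with 6 IL1B and 6 PBS arrays.

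IL1B is a cytokine released by activated macrophages. It binds IL1R1 with its partner IL1RAP, and through the adaptor MYD88 it activates NF-kappaB, which switches on inflammatory genes and, in the same wave, the inhibitors that end the response. Given into the body it also reaches the liver, bone marrow and brain vessels, raises interleukin 6 and glucocorticoids, and mobilises neutrophils. Microglia are the resident macrophages of the brain, are dividing in the first postnatal week, and keep an identity set by colony-stimulating factor 1 and transforming growth factor beta. CD11B is the integrin alpha M chain (gene Itgam). Neutrophils, monocytes and natural killer cells carry it as well, so the magnetic gate does not separate them from microglia.

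Signals are given as log2 of the quantile-normalised processed intensity, differences as IL1B minus PBS on the log2 scale ± SE, and folds as ratios of group medians. A probe or gene was called when limma's adjusted p (Benjamini-Hochberg over 55681 probes) was under 0.05 and the ratio of medians passed 1.5 in either direction. Each gene is given by its brightest probe. The replicates are pools of pups, and nothing in the labels ties samples of different groups to each other. The array counts no molecules, so the number of arrays limits the precision.

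The label of the cells held against their markers: all 30 genes of a microglia identity list (among them Tmem119, P2ry12, Cx3cr1, Csf1r and Sall1) had signals well above background on each of the 12 arrays, and their mean signal was 14.63 to 14.79 (median 14.72) on the PBS arrays and 14.45 to 14.64 (median 14.48) on the IL1B arrays. The mean signals of blood leukocyte marker lists moved with the treatment, although 12 of 15 T, NK and B cell genes were not called (median change 0.29). The mean over 18 neutrophil genes was 8.76 to 9.75 (median 9.13) on PBS arrays and 12.16 to 12.95 (median 12.81) on IL1B arrays, that over 13 monocyte genes 9.77 to 10.00 and 11.30 to 11.59, and that over 15 genes of T, NK and B cells 5.39 to 5.84 and 6.11 to 6.59. None of these 3 ranges overlapped between the groups. Among single probes, 15.8% of all 55681 had groups that did not overlap, a share that is not a background for means over a list. The mean of 29 endothelial genes went the other way, 9.17 to 9.84 on PBS and 8.30 to 8.94 on IL1B arrays, as did those of 22 oligodendrocyte lineage genes (7.88 to 8.50 and 7.31 to 7.86) and 10 erythroid genes (9.71 to 10.48 and 9.09 to 9.62), again without overlap. In bulk RNA, fewer cells of a type and less RNA per cell cannot be told apart. The part of incoming leukocytes in the gene groups below was not tested.

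**Figure D1:**
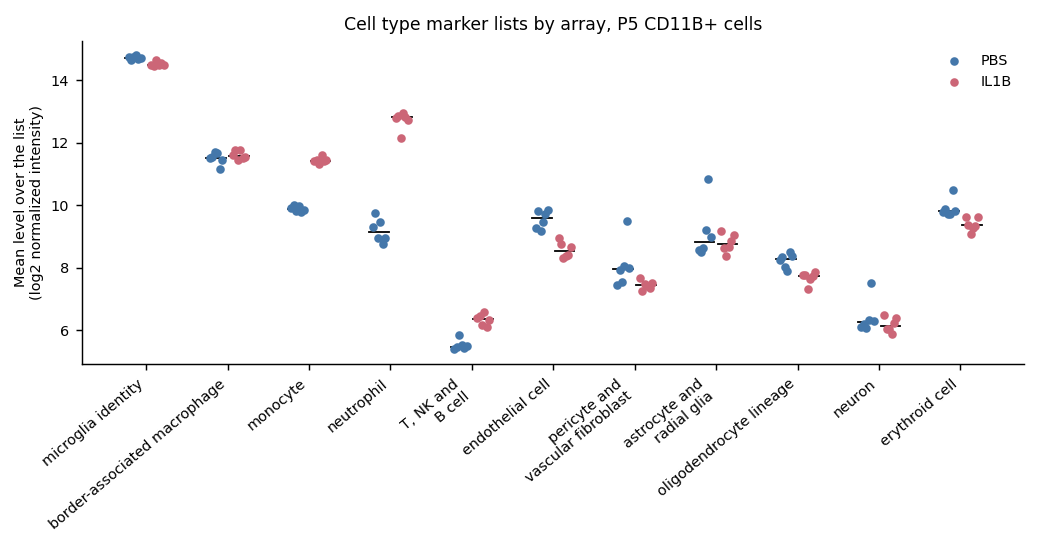
Mean log2 signal of each cell marker list on each of the 12 arrays, with the lists along one axis, the signal along the other, and PBS and IL1B arrays in separate colours. The IL1B arrays lie above all PBS arrays for the neutrophil, monocyte and T, NK and B cell lists and below all PBS arrays for the endothelial, oligodendrocyte and erythroid lists, while 1 PBS array stands high for the astrocyte, pericyte and neuron lists.

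Of the 12 arrays 2 stood apart. PBS replicate 5 had a median correlation of 0.977 with its own group and high markers of astrocytes (list mean 10.85, against 8.50 to 9.22 on the other PBS arrays), pericytes (9.49 against 7.44 to 8.06) and neurons (7.50 against 6.06 to 6.31). IL1B replicate 3 had a median correlation of 0.965, and the lowest neutrophil mean of the IL1B arrays (12.16 against 12.71 to 12.95). The other arrays lay between 0.987 and 0.991. Slides were unevenly shared: PBS 1 to 4 were on slide 3, PBS 5 on slide 2, IL1B 1 and 3 on slide 8, and PBS 6 with IL1B 2, 4, 5 and 6 on slide 4. A fit with the slide as a block therefore compares 4 IL1B arrays with PBS 6 alone, and its value is also the value within the shared slide. A scan day held 5 PBS and 4 IL1B arrays. At P10, the array labelled PBS replicate 6 correlated better with the IL1B arrays (median 0.990) than with its own group (0.987), so P10 values are given with and without it.

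In all, 2258 probes (4.06% of 55681) were higher and 2924 (5.25%) lower in IL1B. Without PBS 5 and IL1B 3 the counts were 2509 and 2753, on the scan day with both groups 2563 and 2950, and with the slide as a block 1306 and 977. The split depends on the scaling: with each array scaled to its 75th percentile instead of quantiles, 2833 were higher and 2369 lower, and the median change of all probes moved from -0.01 to 0.11. With 1 probe a gene, 1248 of 23466 genes (5.32%) were higher and 1734 (7.39%) lower, and the median change of all genes was -0.05. The groups did not overlap, in either direction, for 8822 of the 55681 probes (15.8%). These shares and this median are the background for the gene groups that follow.

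The genes with the largest increases among those with non-overlapping groups and a measured level on all arrays were mostly acute-phase and neutrophil granule genes. Non-overlap was thus a condition of the choice, here and for the largest decreases, and not a finding about these genes. Serpina3g, a serine protease inhibitor of the antichymotrypsin cluster, had a signal of 5.59 to 7.29 (median 6.05) on the PBS arrays and 12.91 to 14.25 (median 13.46) on the IL1B arrays. The difference was 7.29 ± 0.33 (limma adjusted p = 1.06e-07), 169.5-fold. Its neighbour Serpina3f had 5.86 to 6.38 (median 6.03) on the PBS arrays and 11.40 to 12.34 (median 12.08) on the IL1B arrays, 66.3-fold higher. Members of that cluster are close copies of each other, so which one a probe reads is uncertain. Lrg1, a secreted leucine-rich glycoprotein of the acute phase that also modulates vessel signalling, had 6.10 to 7.66 (median 6.37) on the PBS arrays and 11.94 to 13.11 (median 12.88) on the IL1B arrays, with no overlap (6.04 ± 0.33, adjusted p = 3.56e-07, 91.3-fold). Saa3, a serum amyloid A made by macrophages, had 4.14 to 5.80 (median 5.52) on the PBS arrays and 10.55 to 11.75 (median 11.64) on the IL1B arrays (69.5-fold), again without overlap. Upp1, uridine phosphorylase, rose 59.8-fold, and the secreted ligand Prok2 47.9-fold.

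The neutrophil products among the 15 largest increases were Mmp8, the neutrophil collagenase (57.1-fold), Retnlg (45.2-fold), Ltf, the iron-binding lactoferrin (33.1-fold), and Lcn2, lipocalin 2, which captures bacterial siderophores. Lcn2 had 9.14 to 10.48 (median 9.53) on the PBS arrays and 14.09 to 14.79 (median 14.74) on the IL1B arrays, 37.0-fold higher without overlap (4.99 ± 0.23, adjusted p = 1.35e-07). Wfdc21, a small secreted antiprotease-domain protein, rose 41.0-fold. The stefin genes Csta2 (43.3-fold), Cstdc6 (40.7-fold) and Stfa3 (30.0-fold) and the receptor gene Mrgpra2b (31.4-fold) belong to multigene families with near-identical copies, so their identity is uncertain. On each of Mmp8, Retnlg, Ltf, Lcn2, Wfdc21, Csta2, Stfa3 and Mrgpra2b, IL1B replicate 3 was the lowest IL1B array. It was also the lowest for the neutrophil list, of which Mmp8, Retnlg, Ltf and Lcn2 are members. The same array was the lowest for genes outside that list, among them Il1r2, Nos2, Clec4e, Lrg1 and Saa3.

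The largest decreases were led by Lgi2, a secreted leucine-rich repeat protein. Its signal was 9.10 to 9.58 (median 9.46) on the PBS arrays and 5.12 to 5.79 (median 5.37) on the IL1B arrays. It was 17.1-fold lower (-4.01 ± 0.12, limma adjusted p = 1.10e-08). Gja5, the connexin 40 of arterial endothelium, had 8.24 to 9.41 (median 8.57) on the PBS arrays and 4.84 to 6.14 (median 5.39) on the IL1B arrays, 9.05-fold lower with no overlap (-3.31 ± 0.26, adjusted p = 5.27e-06). Other endothelial or vessel-related genes followed: Sox18, an endothelial transcription factor (7.21-fold), Gpr182 (6.53-fold), Hspa12b (5.65-fold), Ephb4, the receptor that marks veins (4.50-fold), Cxcl12 (4.60-fold) and Mrc2, a collagen-uptake receptor (8.45-fold). Lef1, a transcription factor of WNT signalling, fell 4.47-fold, and Hpgd, which inactivates prostaglandins, 6.70-fold. The remaining genes of the 15 were Adamts16 (7.47-fold), Tescl (6.68-fold), Gpr165 (5.38-fold), Slc35f2 (5.01-fold) and Wipf3 (4.54-fold).

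Some genes were well above background in 1 group only, so that their fold is a lower bound, taken as the mean of the bright group over that of the dim group with each dim array set at the lowest signal well above background on it, or at the probe's own signal where higher. Well above background on all IL1B arrays and on no PBS array were, with the bound in parentheses, Entpd3, an ectonucleotidase (at least 26.5-fold), Il1f9, the interleukin 36 gamma gene (at least 25.0-fold), Ankrd22 (14.7), Slfn1 (14.2), Mrgpra5 (11.8), the acute-phase orosomucoids Orm2 (11.3) and Orm1 (10.5), which are near-identical copies, the transporter Slc22a20 (9.28), the B cell chemokine Cxcl13 (9.15) and Ggt1, which breaks down extracellular glutathione (7.41). In the other direction stood Hs3st2, a heparan sulfate sulfotransferase, with 7.29 to 7.98 (median 7.62) on the PBS arrays and 1.58 to 2.94 (median 2.43) on the IL1B arrays (at least 18.8-fold lower, limma adjusted p = 1.12e-07). No IL1B array reached the lowest PBS array, which the choice of genes measured in 1 group only almost ensures. The next bounds downward were 3.48-fold for Ccdc162, 3.26-fold for Ddit4l, an inhibitor of mTOR signalling, 3.13-fold for the adaptor Grb7 and 3.01-fold for Tnni1, and the others, Enpep, Ret, Zfp324 and Slitrk6, lay between 2.28-fold and 2.76-fold. Tnni1 and Slitrk6 were not called with the slide as a block, and, with Ddit4l, Grb7, Enpep, Ret and Zfp324, not with another background correction (normexp).

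A group of probes with no gene name included some that behaved in the same all-or-none way. The array design places 10 probes for non-coding transcripts in the mm9 interval chr13:15947521-15999246, 5 on each strand, between the probes of Gli3 and Inhba, and all 10 were called higher. Well above background on every IL1B array and on no PBS array were 3 forward-strand probes and the reverse-strand probes A_30_P01024409, A_30_P01020126 and A_30_P01022596. The IL1B medians of these reverse-strand probes were 5.32, 4.74 and 4.85. The 3 forward-strand probes are shown because they were brighter. Each is 60 bases long, has mm9 coordinates from the design, and is written in lower case since no part of it is singled out.
A_30_P01026405, chr13:15994161-15994220, forward strand: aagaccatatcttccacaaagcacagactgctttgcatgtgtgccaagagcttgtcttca
A_30_P01033266, chr13:15994224-15994283, forward strand: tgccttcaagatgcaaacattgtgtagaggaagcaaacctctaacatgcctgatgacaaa
A_30_P01023276, chr13:15994284-15994343, forward strand: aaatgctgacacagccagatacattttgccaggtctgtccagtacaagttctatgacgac

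A_30_P01026405 had a signal of 1.57 to 1.60 (median 1.59) on the PBS arrays and 8.61 to 9.38 (median 8.98) on the IL1B arrays. The PBS arrays were at the floor of the array and the IL1B arrays far above it, at least 41.9-fold higher (7.43 ± 0.12, limma adjusted p = 1.24e-10). A_30_P01023276 gave 1.57 to 3.30 (median 3.19) and 9.62 to 10.27 (median 9.86), at least 77.5-fold higher, and A_30_P01033266 was at least 33.7-fold higher. Another forward probe, just before them, was well above background on 1 of 6 PBS arrays and rose by 4.99, and the fifth, further along the strand, was so on 2 of 6 IL1B arrays. The 5 reverse-strand probes lay at positions 15973329 to 15973678, with bounds of 1.27 to 2.95. At P10 the IL1B minus PBS difference of A_30_P01026405 was -0.02 in CD11B+ cells, and in O4+ cells at P5 it was 0.91, with interaction adjusted p = 1.03e-13 and 1.78e-11. The probes name no gene. Whether they read a single transcript or several, and what is encoded, was not determined. Inhba, the next named gene on the forward strand, is described with the TGF-beta family.

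**Figure D2:**
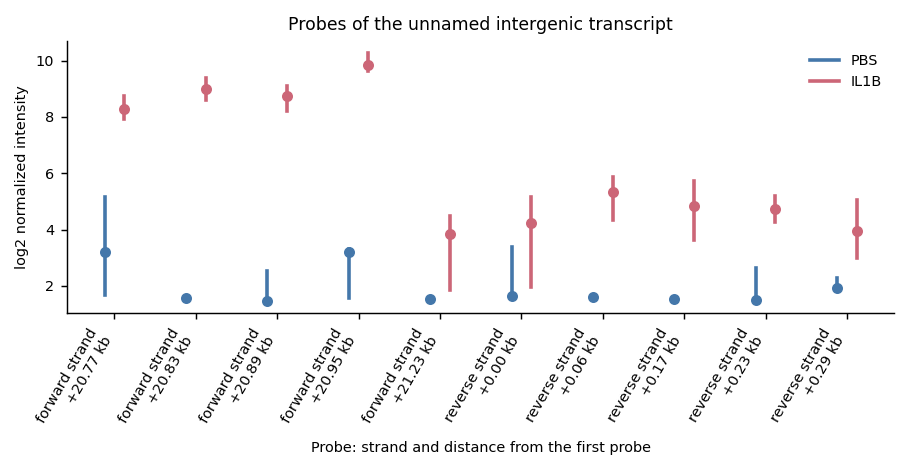
Log2 signal of the 10 unnamed chromosome 13 probes in PBS and IL1B arrays (dot, median of 6 arrays, and bar, lowest to highest array). Forward-strand probes come first and reverse-strand probes second, each in order of position. The 4 adjacent forward-strand probes have IL1B signals of 7.92 to 10.27, and the fifth forward-strand probe and the 5 reverse-strand probes have 5.88 or less.

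Because the most increased genes moved together, the RefSeq promoters (build GRCm38.p6) of the 15 largest increases and 15 largest decreases were searched on both strands, from 250 bases before to 50 after each start, for the letters GGANNNTCC (kappaB), TTCNNNGAA (STAT), TTGCNNAA (C/EBP) and GAAANNGAA (interferon-stimulated response element, ISRE). Of 13 increased genes with a promoter in the table, 6 (46.2%) held the C/EBP letters, which 12.2% of all 27025 genes hold. The STAT letters were in 2 (15.4%, all genes 9.55%), the ISRE letters in 2 (15.4%, 9.76%), the kappaB letters in 1 (7.69%, 9.77%), and any of the 4 in 8 (61.5%, 34.2%). None of the 10 decreased genes with a promoter held any. A match is a description of letters, not of binding. The promoters shown are those of 4 genes whose values were given above and that hold a match, as the 250 bases before the start in the gene's own direction. Capitals mark the matches.
Serpina3g, chr12:104235897-104236146, forward strand: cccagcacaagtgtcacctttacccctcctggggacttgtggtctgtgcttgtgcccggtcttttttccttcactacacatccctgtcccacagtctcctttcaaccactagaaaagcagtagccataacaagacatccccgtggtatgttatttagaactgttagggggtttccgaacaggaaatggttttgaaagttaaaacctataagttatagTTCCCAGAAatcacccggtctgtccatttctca
Serpina3f, chr12:104214294-104214543, forward strand: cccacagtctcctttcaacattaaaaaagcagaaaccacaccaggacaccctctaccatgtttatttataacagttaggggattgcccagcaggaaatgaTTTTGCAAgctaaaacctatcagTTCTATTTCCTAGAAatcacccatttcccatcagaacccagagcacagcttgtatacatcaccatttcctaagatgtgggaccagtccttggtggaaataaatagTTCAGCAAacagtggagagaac
Saa3, chr7:46715677-46715926, reverse strand: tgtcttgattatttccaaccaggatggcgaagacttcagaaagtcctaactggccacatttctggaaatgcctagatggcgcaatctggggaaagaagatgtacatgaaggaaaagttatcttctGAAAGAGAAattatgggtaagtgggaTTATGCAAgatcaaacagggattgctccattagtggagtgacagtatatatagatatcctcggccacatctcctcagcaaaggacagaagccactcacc
Lcn2, chr2:32387740-32387989, reverse strand: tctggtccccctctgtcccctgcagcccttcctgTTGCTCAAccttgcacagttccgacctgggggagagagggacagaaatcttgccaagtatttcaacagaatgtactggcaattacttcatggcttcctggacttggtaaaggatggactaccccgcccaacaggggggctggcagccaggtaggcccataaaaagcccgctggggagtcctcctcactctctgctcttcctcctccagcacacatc

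In Serpina3g the capitals are a STAT match. In Serpina3f they are, in order, C/EBP, an ISRE overlapping a STAT match, and C/EBP, in Saa3 an ISRE followed by C/EBP, and in Lcn2 C/EBP. The factor genes themselves were measured: Cebpb, Cebpd and Stat3 are given with the acute-phase genes that follow.

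In the interleukin 1 system, 16 of 32 genes rose and none fell, with a median change of 0.57. The injected cytokine's own gene was modestly higher: Il1b had 13.90 to 14.11 (median 13.98) on the PBS arrays and 14.59 to 14.92 (median 14.66) on the IL1B arrays, with every IL1B array above every PBS array (0.74 ± 0.07, adjusted p = 1.68e-05, limma). Il1a rose by 0.88 ± 0.13. Genes that limit interleukin 1 changed by more. Il1r2, the decoy receptor, had 7.72 to 8.81 (median 8.15) on the PBS arrays and 11.66 to 12.72 (median 12.63) on the IL1B arrays and was 22.3-fold higher (4.23 ± 0.22, adjusted p = 2.88e-07), again without overlap. Il1rn, the receptor antagonist, had 4.54 to 5.23 (median 4.75) on the PBS arrays and 6.55 to 7.14 (median 7.06) on the IL1B arrays (2.15 ± 0.14), and Irak3, a kinase-dead inhibitor of the receptor complex, rose by 1.79 ± 0.12. The signalling receptor Il1r1 (0.72 ± 0.16), its partner Il1rap (1.38 ± 0.21) and the adaptor Myd88 (0.67 ± 0.06) rose less. The interleukin 18 receptor chains Il18rap (3.66 ± 0.30) and Il18r1 (3.03 ± 0.48), the interleukin 18 binding protein Il18bp (1.57 ± 0.22) and the inflammasome gene Mefv, pyrin (4.00 ± 0.17), also rose, the receptor chains from a level well above background on only 2 and 1 of 6 PBS arrays, as did the inflammatory caspases Casp4 (1.22 ± 0.09) and Casp1 (0.65 ± 0.07). Nlrp3 (0.49), Pycard (-0.22), Il18 (-0.03) and Il33 (-1.49) were not called. In the fit with the slide as a block, 10 of the 32 were called, and Il1a, Il1r1, Il1rap, Il18r1 and Casp1 had adjusted p of 0.0509 to 0.341.

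Among NF-kappaB subunits, kinases and inhibitors, 8 of 28 rose (28.6%) and none fell (median 0.28). Those that rose were the non-canonical subunits Relb, which had 11.59 to 11.82 (median 11.73) on the PBS arrays and 12.53 to 12.79 (median 12.70) on the IL1B arrays (0.96 ± 0.05, adjusted p = 4.08e-07), and Nfkb2 (0.76 ± 0.08), the adaptor Traf1 (2.29 ± 0.16), the kinase Ikbke (2.04 ± 0.16), the cytokine mRNA nuclease Zc3h12a (1.80 ± 0.20), and the A20-binding inhibitors Tnip1 (0.90 ± 0.07), Tnip2 (0.60 ± 0.06) and Tnip3 (0.83 ± 0.14). The classical feedback inhibitors were not among them: Nfkbia, which had 16.75 to 16.95 (median 16.85) on the PBS arrays and 16.24 to 16.52 (median 16.43) on the IL1B arrays, changed by -0.46 ± 0.06, Tnfaip3 (A20) by -0.30 ± 0.10 and Nfkbiz by -0.40 ± 0.08. The canonical subunits Rela (0.23), Nfkb1 (0.25) and Rel (0.01) were not called. In the slide-block fit 7 of the 28 were called higher, Tnip3 not.

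The acute-phase and STAT3 target genes rose as a broad group, with 24 of 35 higher (68.6%), 1 lower and a median of 1.24. Beside Serpina3g, Serpina3f, Saa3, Lrg1 and Lcn2, Serpina3i rose 36.5-fold and Hp, haptoglobin, 16.2-fold. Steap4, a metalloreductase, had 1.61 to 4.56 (median 1.68) on the PBS arrays and 6.20 to 6.91 (median 6.57) on the IL1B arrays, but was well above background on only 1 of 6 PBS arrays. The signalling genes of the pathway moved by less but without overlap. Socs3, the feedback inhibitor of interleukin 6 signalling, had 13.07 to 13.52 (median 13.22) on the PBS arrays and 14.63 to 14.95 (median 14.85) on the IL1B arrays (1.60 ± 0.08, adjusted p = 2.52e-07). Stat3 rose by 0.70 ± 0.05, Cebpb by 1.08 ± 0.06, Cebpd by 0.88 ± 0.10, Bcl3 by 1.71 ± 0.10 and Cish by 1.85 ± 0.17. Il6st, the signalling receptor chain gp130, was the member that fell, from 11.70 to 11.95 (median 11.78) to 10.71 to 10.94 (median 10.84) (-0.96 ± 0.06, adjusted p = 7.81e-07). Serpina3n, the family member best known from reactive glia, changed by 0.04 ± 0.47 and was not called. IL1B replicate 3 had the lowest mean of this list among the IL1B arrays, 9.41.

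Cytokine and chemokine genes moved in both directions. Of 30 cytokines other than interleukin 1, 8 rose and 5 fell, and the median of -0.01 became 0.12 with 75th-percentile scaling. Ifng, interferon gamma, had 2.68 to 4.49 (median 3.54) on the PBS arrays and 7.10 to 8.44 (median 7.51) on the IL1B arrays, with no overlap (4.02 ± 0.36, adjusted p = 1.25e-05, 15.7-fold), although 3 of 6 PBS arrays were not well above background. Il6 rose by 1.01 ± 0.11, Osm by 0.76 ± 0.07, Ltb, lymphotoxin beta, by 1.08 ± 0.09 and Tnfsf13b, the B cell survival factor BAFF, by 1.38 ± 0.22. Tnf had 13.83 to 14.09 (median 13.90) on the PBS arrays and 13.10 to 13.52 (median 13.25) on the IL1B arrays. The groups did not overlap, and the change of -0.66 ± 0.08 was close to the limit of 1.5: Tnf was no longer called without IL1B 1, 2 or 3 (changes of -0.63, -0.62 and -0.63) or with the slide as a block (-0.48 with adjusted p = 0.0842). Il10, the anti-inflammatory cytokine, fell by 1.07 ± 0.17 and Ifnb1 by 1.46 ± 0.28 on the log2 scale, Csf2, GM-CSF, changed by -1.44 ± 0.29 and was well above background on 2 of 6 IL1B arrays, and Lif was the fifth that was lower (-0.83 ± 0.27), and depended on the arrays: Lif was not called without IL1B 1, 3, 4, 5 or 6 or PBS 1, 2, 3, 4, 5 or 6 (changes of -0.89 to -0.68). In the slide-block fit Il10, Ifnb1 and Csf2 had adjusted p of 0.214, 0.509 and 0.312, and 5 cytokines were called higher and 1 lower. Csf3, G-CSF, had a change of 2.02 ± 0.66 with adjusted p = 0.0501.

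Of 16 CXC and CX3C chemokines, 6 rose and 3 fell, and of 19 CC chemokines 4 rose and none fell. Ccl12, a monocyte chemoattractant, had 14.08 to 14.30 (median 14.23) on the PBS arrays and 16.05 to 16.54 (median 16.40) on the IL1B arrays (2.12 ± 0.08, adjusted p = 3.61e-08), with all IL1B arrays above all PBS arrays. Ccl8 rose 22.1-fold, from 6.16 to 7.48 (median 7.13) to 10.30 to 12.19 (median 11.60), and Ccl17 (by 3.63 ± 0.23) and Ccl5, a T cell attractant (by 2.02 ± 0.14), rose too. Of the ligands of CXCR2, which draws neutrophils, Cxcl3 rose by 2.68 ± 0.34 and Cxcl5, measured well above background on 1 of 6 PBS arrays, by 2.55 ± 0.20, Cxcl2 changed by -0.05 ± 0.12, and Cxcl1 fell from 13.23 to 13.84 (median 13.68) to 12.68 to 13.18 (median 12.94) (-0.69 ± 0.12, adjusted p = 0.00155), a call lost with the slide as a block (adjusted p = 0.214). Among interferon-induced ligands of CXCR3, Cxcl9 rose by 3.22 ± 0.35 while Cxcl10 changed by 0.04 ± 0.11. Cxcl16 rose by 1.61 ± 0.11. Cxcl12, which retains CXCR4-bearing cells and in brain is made largely by vessels, had 9.23 to 10.47 (median 9.91) on the PBS arrays and 7.21 to 8.24 (median 7.71) on the IL1B arrays, and Cxcl14 was lower (-0.79 ± 0.20), not with the slide as a block. Ccl2 (-0.47), Ccl3 (-0.30) and Ccl4 (-0.22) were not called.

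Of 24 receptors for chemokines and chemoattractants 10 rose and 2 fell (median 0.60). The highest were receptors of the neutrophil and monocyte lineage: the formyl peptide receptors Fpr2 (16.9-fold) and Fpr1 (10.6-fold), the leukotriene B4 receptor Ltb4r1 (7.67-fold), Cxcr2 (4.79-fold) and the C5a receptors C5ar2 (4.50-fold) and C5ar1 (3.58-fold). Fpr1 had 8.38 to 8.87 (median 8.51) on the PBS arrays and 11.55 to 11.95 (median 11.92) on the IL1B arrays. Ackr3, the scavenger receptor for CXCL12, fell from 8.85 to 9.21 (median 9.06) to 7.18 to 7.98 (median 7.83) (-1.29 ± 0.13, adjusted p = 2.74e-05). Cxcr3 was lower by 0.79 ± 0.09, a call lost with the slide as a block.

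Enzymes and receptors of small-molecule mediators included 11 that rose and 1 that fell of 30 (median 0.29). Nos2, inducible nitric oxide synthase, had 7.24 to 7.80 (median 7.63) on the PBS arrays and 10.18 to 10.90 (median 10.73) on the IL1B arrays, with no overlap (3.07 ± 0.13, adjusted p = 6.48e-08, 8.54-fold). Acod1, which makes itaconate, rose 25.1-fold, Hdc, which makes histamine, 11.4-fold, Ch25h, which makes 25-hydroxycholesterol, 8.33-fold, and the arginine enzymes Arg2 8.28-fold and Ass1 4.09-fold. Ptgs2, cyclooxygenase 2, had 8.88 to 9.35 (median 9.26) on the PBS arrays and 9.57 to 10.00 (median 9.83) on the IL1B arrays, with no overlap, and narrowly missed the ratio of 1.5 (0.62 ± 0.11, adjusted p = 0.00149, 1.49-fold). It was called when means replaced medians, on the scan day with both groups, and without IL1B 1, 2 or 4. Not called were Ptges (0.31) and Arg1 (0.08). Of the prostaglandin E2 receptors, Ptger4 rose by 2.07 ± 0.10, and Ptger3 was lower by 1.92 ± 0.22, a call lost with the slide as a block (adjusted p = 0.101), with 4 of 6 IL1B arrays well above background.

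Genes induced by interferon rose as a broad group. Of 20 interferon-inducible GTPases, which attack vacuoles holding pathogens, 19 rose (95.0%), with a median of 1.76. Gbp2 had 8.64 to 9.48 (median 8.79) on the PBS arrays and 12.32 to 13.57 (median 12.60) on the IL1B arrays, without overlap (3.90 ± 0.24, adjusted p = 7.16e-07), Tgtp2 rose 24.1-fold and Igtp 3.53-fold. The GTPase genes hold close copies, so which copy a probe such as that of Tgtp2 reads is uncertain. Of 36 type I interferon antiviral genes 23 rose (63.9%, median 0.77). Ifitm1, a membrane restriction factor also abundant in leukocytes, rose 14.5-fold, from 9.26 to 9.83 (median 9.57) to 12.70 to 13.69 (median 13.43), and Zbp1, a nucleic acid sensor, 5.82-fold. The canonical members Isg15, Ifit1, Mx1 and Rsad2 moved less than Ifitm1 and Zbp1, though each by more than the list median. Isg15 had 11.89 to 12.68 (median 12.34) on the PBS arrays and 12.68 to 13.81 (median 13.39) on the IL1B arrays, where the groups met at the edge (1.00 ± 0.21, limma adjusted p = 0.00435). Ifit1 rose by 1.63 ± 0.26, Mx1 by 1.15 ± 0.18 and Rsad2 by 0.85 ± 0.22 (not called within the scan day with both groups). Ifit3 (0.66) and Bst2 (-0.34) were not called. Of 15 regulators 7 rose and 1 fell. Irf7 rose by 1.45 ± 0.19, Batf2 by 2.29 ± 0.27, Batf by 1.26 ± 0.09 and Stat2 by 0.84 ± 0.12, Irf4 was lower by 0.83 ± 0.08, and Irf1 (0.41), Irf8 (0.07) and Irf3 (0.00) were not called. In the slide-block fit 14 GTPases, 8 antiviral genes and 3 regulators were called higher. Isg15, Ifit1, Mx1, Rsad2, Irf7 and Stat2 were not among them, and the list medians were 1.65, 0.71 and 0.65.

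Antigen presentation rose most in class II. Of 12 MHC class II genes 9 rose (median 1.79). H2-Eb1, a beta chain, had 10.34 to 11.22 (median 11.01) on the PBS arrays and 12.80 to 14.06 (median 13.59) on the IL1B arrays (2.60 ± 0.21, adjusted p = 6.42e-06), H2-Ab1 rose 5.46-fold, the invariant chain Cd74 3.82-fold and the peptide loader H2-DMa 3.22-fold, each with no overlap. With the slide as a block H2-Eb1, H2-Ab1, Cd74 and H2-DMa changed by 2.49, 2.08, 2.11 and 1.44. H2-Aa, also called higher in the main fit, changed by 1.81 with that block and was no longer called. Ciita, the class II transactivator, changed by 0.69 ± 0.67 (limma adjusted p = 0.543). Of 26 class I and immunoproteasome genes 10 rose (38.5%, median 0.59). Nlrc5, the class I transactivator, rose 12.9-fold, the peptide transporter Tap1 by 1.39 ± 0.16 and the immunoproteasome subunit Psmb9 by 1.05 ± 0.12, whereas B2m (0.13), H2-K1 (0.22) and H2-D1 (0.45) were not called. Class I heavy chains are near-identical copies, and their single values are uncertain. Of 22 co-stimulatory and checkpoint genes 9 rose and 1 fell: Cd274, PD-L1, had 8.68 to 9.43 (median 9.29) on the PBS arrays and 10.47 to 11.15 (median 11.03) on the IL1B arrays (1.71 ± 0.15), Cd40 rose by 1.72 ± 0.18 and Vcam1 by 2.37 ± 0.17, while Cd86 (0.25) and Cd80 (0.32) were not called. The inhibitory receptor Cd200r1 was the one that was lower (-0.65 ± 0.20), near the threshold of adjusted p: Cd200r1 was not called without IL1B 2, 3, 4 or 6 or PBS 1, 2, 3, 4 or 6 (changes of -0.66 to -0.58, adjusted p of 0.0511 to 0.0761).

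In the complement system 6 of 25 genes rose and 1 fell. The components C3 and C4b and the alternative pathway's factor B (Cfb) had non-overlapping groups: C3 had 10.16 to 10.77 (median 10.53) on the PBS arrays and 12.62 to 13.28 (median 13.17) on the IL1B arrays (6.25-fold), C4b rose 7.27-fold and Cfb 4.54-fold. Cd55, which protects cells from complement, rose 9.08-fold. The C1q chains, made in brain mainly by microglia, were not called (C1qa 0.08, C1qb 0.33, C1qc 0.22). Itgax, the CD11C chain, was lower by 0.83 ± 0.12, not called with the slide as a block. Of 22 Toll-like receptors and partners, Cd14 (1.01 ± 0.12), Tlr7 (0.75 ± 0.09), Tlr13 (0.73 ± 0.08), Tlr6 (0.69 ± 0.08) and Myd88 rose, Cd180 fell from 8.81 to 9.59 (median 9.26) to 8.11 to 8.43 (median 8.28), and Tlr2 (0.16) and Tlr4 (0.11) were not called.

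The C-type lectin, scavenger and phagocytic receptors rose in 17 of 32 cases (53.1%) and fell in 1 (median 0.92). Clec4e, the receptor Mincle for mycobacterial glycolipid, had 7.70 to 8.28 (median 7.94) on the PBS arrays and 11.28 to 11.79 (median 11.65) on the IL1B arrays, with no overlap (3.65 ± 0.12, adjusted p = 1.25e-08). Cd300lf, an inhibitory lipid receptor, rose 12.5-fold, Clec4d 9.42-fold, Trem3 7.97-fold, and Axl, a receptor for the bridging proteins that mark dead cells, 4.99-fold. Marco, a scavenger receptor, had 7.37 to 10.84 (median 8.20) on the PBS arrays and 12.20 to 13.07 (median 12.65) on the IL1B arrays. All IL1B arrays exceeded all PBS arrays, but the gene was not called with the slide as a block (adjusted p = 0.103). Mertk (0.21) and Trem2 (-0.08), phagocytic receptors of resting microglia, were not called, and Tyro3 was lower by 1.13 ± 0.29, also lost with that block.

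The genes that define microglia changed little as a list: 1 of 30, Cd33, rose, 6 fell (20.0%, against 7.39% of all genes) and the median was -0.14. The members that fell were mostly surface receptors of the unstimulated state. P2ry12, the ADP receptor that steers microglial processes to injury, had 15.44 to 15.82 (median 15.67) on the PBS arrays and 14.66 to 15.20 (median 14.87) on the IL1B arrays, with all IL1B arrays below all PBS arrays (-0.73 ± 0.10, adjusted p = 2.64e-04). Gpr34, a lysophosphatidylserine receptor, had 14.61 to 15.02 (median 14.87) on the PBS arrays and 13.77 to 14.29 (median 13.90) on the IL1B arrays (-0.86 ± 0.10, adjusted p = 7.32e-05). P2ry13 (-0.64 ± 0.10), Sall1, the identity-keeping transcription factor (-0.60 ± 0.11), and Slc2a5, the fructose transporter GLUT5 (-1.51 ± 0.20), fell as well. Of the sixth, Fcrls was not called without IL1B 2, 3 or 4 (changes of -0.81 to -0.76), and Cd33 was not called without PBS 1, 2 or 5 (changes of 0.58 to 0.60). Tmem119 (-0.26), Cx3cr1 (-0.42), Csf1r (0.02) and Itgam itself (0.61) were not called. With the slide as a block, Gpr34 remained called (adjusted p = 0.0171) and the sizes were similar, P2ry12 -0.76 with adjusted p = 0.0655, P2ry13 -0.78 with adjusted p = 0.051, Sall1 -0.72 with adjusted p = 0.0523, Slc2a5 -1.32 with adjusted p = 0.0829.

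Genes of disease-associated and white-matter microglia, a phagocytic state seen in development and neurodegeneration, rose in 4 of 30 cases and fell in 3 (median -0.22). Lgals3, galectin 3, had 11.73 to 12.18 (median 11.96) on the PBS arrays and 14.10 to 14.75 (median 14.54) on the IL1B arrays and was 5.94-fold higher, Lyz2 rose by 1.19 ± 0.09 and Clec7a by 0.98 ± 0.13, together with Axl. Lpl, lipoprotein lipase, fell from 13.35 to 13.93 (median 13.79) to 12.39 to 12.75 (median 12.49) (-1.18 ± 0.10, adjusted p = 1.06e-05). Itgax and Cd9 (-0.64 ± 0.08) were the other members below, and Cd9 was not called without IL1B 4, 5 or 6 or PBS 3, 4 or 6 (changes of -0.63 to -0.60). Spp1 (-0.13), Apoe (0.06), Gpnmb (-0.29) and Igf1 (-0.44) were not called. Of 21 classical activation and polarisation genes 10 rose and 2 fell. They included genes named for opposite poles, Nos2 and Il6 on one side and Chil3 (4.03 ± 0.37), Retnla (2.50 ± 0.32) and Il4ra (2.19 ± 0.33) on the other, while Mrc1 (-0.11), Arg1 and Cd86 were not called, and Tnf and Il10 were the members below. Il4ra was not called with the slide as a block. Chil3 is also abundant in neutrophil precursors and monocytes. Immediate early genes changed in few cases, 2 higher and 1 lower of 31 (median 0.02): Fosl1, well above background on 1 of 6 PBS arrays, rose by 2.03 ± 0.40, Fosl2 by 1.24 ± 0.10, Egr2 was lower (-0.63 ± 0.11), and Fos (0.17), Jun (-0.48) and Egr1 (-0.22) were not called.

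Cell division genes fell as a group. Of 30 DNA replication and repair genes 25 fell (83.3%, against 7.39% of all genes) and none rose, with a median of -0.90. All members of the replicative helicase measured here, Mcm2 to Mcm7, fell by 0.93 to 1.17. Mcm6 had 14.63 to 14.95 (median 14.74) on the PBS arrays and 13.39 to 13.83 (median 13.61) on the IL1B arrays, with every IL1B array below every PBS array (-1.17 ± 0.08, adjusted p = 2.43e-06). Mcm3 had 13.59 to 13.89 (median 13.82) on the PBS arrays and 12.61 to 12.91 (median 12.78) on the IL1B arrays (-1.03 ± 0.06), Uhrf1, which maintains DNA methylation through replication, fell by 1.03 ± 0.11, the ribonucleotide reductase subunits Rrm1 by 0.77 and Rrm2 by 0.81, and Pcna by 0.62. Tyms (-0.15), Cdt1 (-0.35) and Tk1 (-0.64) were not called. With the slide as a block, Uhrf1, Rrm1, Rrm2 and Pcna had adjusted p of 0.0506, 0.0641, 0.133 and 0.0592. Of 30 mitosis genes 24 fell (80.0%) and none rose (median -0.78). Mki67, the proliferation antigen Ki-67, had 14.21 to 14.31 (median 14.25) on the PBS arrays and 13.03 to 13.78 (median 13.52) on the IL1B arrays (-0.83 ± 0.12, adjusted p = 5.14e-04), and the mitotic kinesin Kif20a fell by 1.03 ± 0.09.

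With the slide as a block, 13 of the replication genes and 1 of the mitosis genes were called lower, and the medians were -0.78 and -0.72. Mcm6 stayed called (-1.07 with adjusted p = 0.00593), and Mki67 did not (-0.79 with adjusted p = 0.144). On the scan day with both groups, 24 and 25 were called lower. Around the G1 to S transition, 3 of 27 genes rose and 8 fell. The factors E2f1 (-1.04 ± 0.08), E2f7 (-1.17 ± 0.17) and E2f8 (-0.94 ± 0.12) and cyclin E1, Ccne1 (-0.74 ± 0.11), fell, as did the inhibitors Cdkn1c (-1.13 ± 0.11) and Cdkn2c (-0.95 ± 0.14). Gadd45a, a stress-induced growth arrest gene, rose by 1.10 ± 0.15, Ccnd3 by 0.74 ± 0.10 and the inhibitor Cdkn2d by 0.57 ± 0.10. Cdkn1a, p21, changed by 0.26 ± 0.09, and Cdk1 by -0.38 ± 0.24, neither called. Counted with the slide as a block, 2 of these 27 were called lower, and E2f7, E2f8, Ccne1, Cdkn2c and Cdkn2d were not called. Ccne1 was not called without IL1B 2, 3 or 4 (changes of -0.74 to -0.66).

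**Figure D3:**
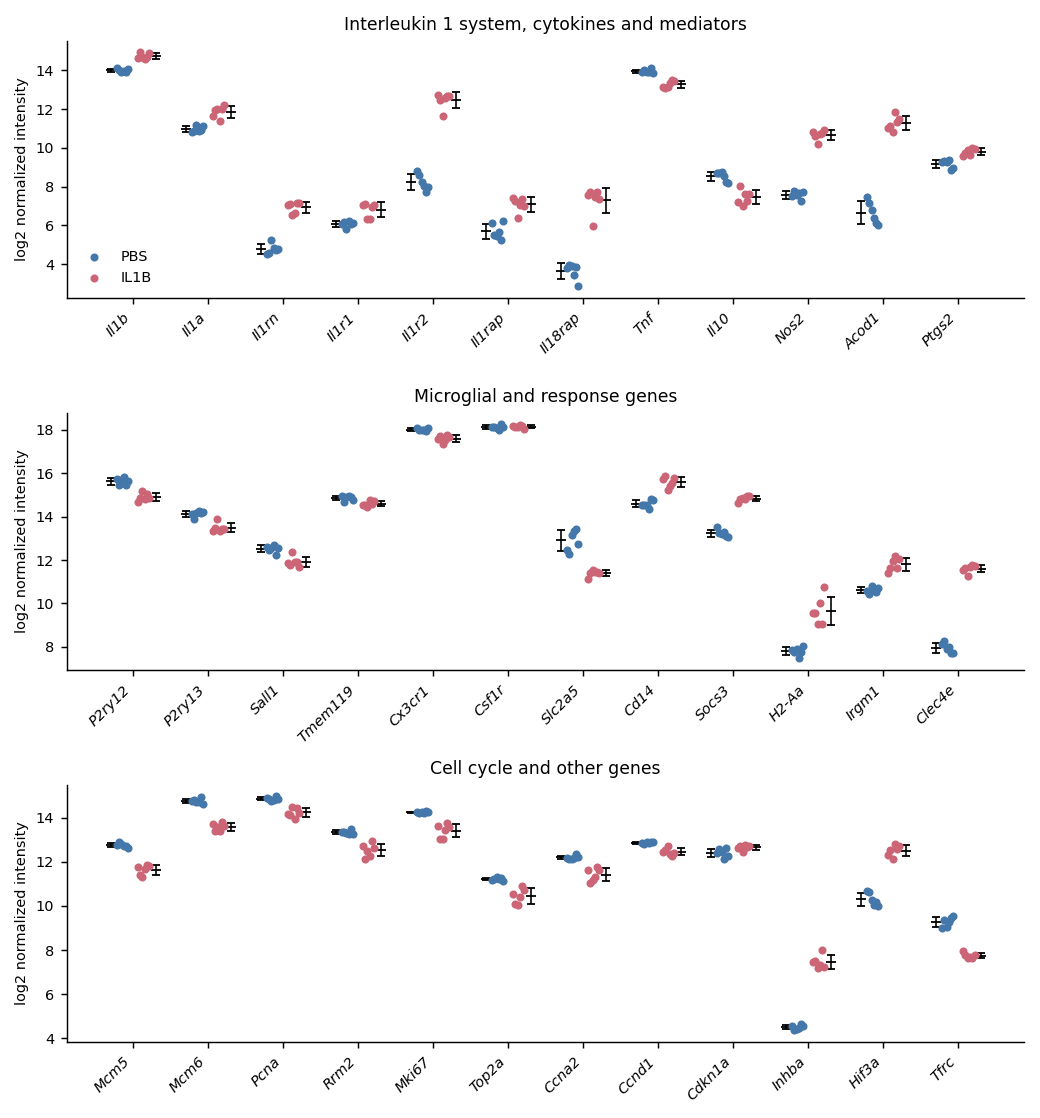
Log2 signal of 36 genes on each of the 12 arrays in 3 panels, with points for single arrays, bars for the group mean ± SD (n = 6), and PBS and IL1B side by side. All IL1B arrays lie above all PBS arrays for Il1r2, Nos2 and Clec4e and below them for P2ry12, Mcm6 and Tfrc.

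Genes induced by glucocorticoids rose in 11 of 20 cases and fell in 1 (median 0.77). Fkbp5, a co-chaperone that restrains the receptor, had 11.47 to 11.89 (median 11.75) on the PBS arrays and 13.53 to 14.03 (median 13.89) on the IL1B arrays, with no overlap (2.10 ± 0.10, adjusted p = 1.56e-07, 4.40-fold). Zbtb16 rose 5.61-fold, Hif3a 5.04-fold, Klf9 7.62-fold and Anxa1, annexin A1, 17.0-fold, and Tsc22d3, GILZ, by 0.83 ± 0.05 and the clock gene Per1 by 0.71 ± 0.04. Anxa1 and Il1r2, which are on this list, are also abundant in neutrophils. Nr3c1, the receptor itself (-0.09), and Sgk1 (-0.47) were not called, and Pdk4 was lower (-0.68 ± 0.10), not with the slide as a block. Counted with the slide as a block, 11 were called higher.

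Metabolic genes changed in smaller sets. In iron handling 7 of 23 rose and 3 fell. Lcn2 and Steap4, already counted with the acute-phase genes, were among those that rose. Tfrc, the transferrin receptor, had 8.99 to 9.56 (median 9.31) on the PBS arrays and 7.63 to 7.97 (median 7.73) on the IL1B arrays, 2.99-fold lower without overlap (-1.53 ± 0.10, adjusted p = 1.36e-06), the ferroxidase Heph was lower by 1.19, the iron exporter Slc40a1 fell by 0.78 ± 0.10, and Slc39a14, a zinc and iron importer, had 7.77 to 8.34 (median 8.16) on the PBS arrays and 9.89 to 10.26 (median 10.06) on the IL1B arrays and rose by 1.93 ± 0.10. Mt2 rose by 1.00 ± 0.15 and the ferritin chains were not called (Fth1 0.40, Ftl1 -0.09). Heph was not called without IL1B 2, 4 or 5 or PBS 2, 4, 5 or 6 (changes of -1.23 to -0.96). In cholesterol synthesis and export, Nr1h3, the liver X receptor alpha, rose by 1.86 ± 0.13 and Abcg1 by 0.69 ± 0.08, whereas the synthetic enzymes Sqle (-1.02 ± 0.16), Cyp51 (-0.90 ± 0.10), Fdps (-0.69 ± 0.11) and Lss (-0.73 ± 0.13) fell. Without PBS 5 and IL1B 3, 2 of these 4 enzymes were called, and Fdps was not called without PBS 3, 5 or 6 (changes of -0.69 to -0.61). Heph and Lss were not called with the slide as a block. In glucose use 4 of 28 genes rose and 2 fell. Slc2a3, GLUT3, rose 4.59-fold, Slc2a6 2.69-fold and Pfkp by 0.70 ± 0.07, Tpi1 fell by 0.61 and Ldha (-0.36), Hk2 (0.20) and Slc2a1 (0.39) were not called. Of 31 respiratory chain genes 1 fell (Ndufab1, -0.67 ± 0.05), and of 34 lysosomal genes Ctsh rose by 1.17 ± 0.07 and Atp6v0d2 was lower by 1.54, the latter lost with the slide as a block.

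In the TGF-beta and bone morphogenetic protein family 4 of 34 rose and 5 fell. Inhba, the activin A subunit next to the unnamed chromosome 13 probes, was 7.33-fold higher with no overlap (2.95 ± 0.13, limma adjusted p = 7.22e-08). It had 4.36 to 4.66 (median 4.53) on the PBS arrays and 7.19 to 8.02 (median 7.40) on the IL1B arrays. Its change at P10 was 1.08 (1.34 without PBS 6) and in O4+ cells 0.06 (interaction adjusted p = 8.00e-04 and 2.86e-11). Fst, the activin inhibitor follistatin, was above background on no PBS array and at least 1.42-fold higher, Id2 rose by 0.89 ± 0.07 and the receptor Acvr1b by 0.73 ± 0.07. Bmp2 fell from 12.68 to 13.09 (median 12.95) to 11.18 to 11.74 (median 11.59), Lrrc32 (-1.20 ± 0.23), Tgfbr3 (-0.85 ± 0.21), Bmp4 (-0.79 ± 0.23) and Smad6 (-0.66 ± 0.11) were lower, and Tgfb1 (0.10), Tgfbr1 (0.18) and Tgfbr2 (0.26) were not called. Bmp4 was not called without IL1B 1, 2, 4, 5 or 6 or PBS 1, 2, 5 or 6 (changes of -0.79 to -0.71). Fst, Lrrc32, Tgfbr3 and Bmp4 were not called with the slide as a block. Among 25 purinergic and ion channel genes 6 rose and 3 fell: the nucleotide receptor P2ry2 rose 5.72-fold, P2ry14 3.83-fold and Nt5e, which makes adenosine, 5.10-fold, against the falls of P2ry12 and P2ry13 and of the potassium channel Kcnj2 (-0.70 ± 0.17). Of 36 integrin and matrix genes 14 rose and 3, Itgb8 (at least 1.82-fold lower), Adamts1 (-0.60 ± 0.09) and Itgax, fell. Mmp8, also on the neutrophil list, was among those that rose. Adam8 rose 8.78-fold, Cd44 4.77-fold, Thbs1, thrombospondin 1, 4.29-fold, Plaur, the urokinase receptor, by 1.68 ± 0.07 and Itgb2, the partner chain of CD11B, by 1.04 ± 0.06. Kcnj2 and Itgb8 were not called with the slide as a block, Kcnj2 was not called without PBS 1, 4 or 6 (changes of -0.69 to -0.65), and Itgb8 was not called without IL1B 6 or PBS 1 or 3 (changes of -1.22 to -1.17).

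The other cell types that the fraction could hold were described from their markers. Of 18 neutrophil genes 17 rose (94.4%, median 3.70), with Csf3r (0.09) the exception. S100a8 had 12.34 to 13.75 (median 12.92) on the PBS arrays and 16.61 to 17.35 (median 17.29) on the IL1B arrays (20.6-fold), and Ly6g, which defines the lineage, 3.07 to 4.53 (median 4.10) on the PBS arrays and 8.16 to 9.74 (median 9.33) on the IL1B arrays (37.6-fold), neither with overlap. Ly6g was well above background on 3 of 6 PBS arrays and all IL1B arrays. Of 13 monocyte genes 9 rose, among them Plac8 by 2.40 ± 0.13 and Ccr2 by 0.95 ± 0.16. Of 15 T, NK and B cell genes Cd3d (3.78 ± 0.21), Cd3g (at least 2.63-fold) and Ncr1 (at least 1.43-fold) rose, but Cd3e (-0.02), Cd4 (0.08) and Cd8a (-0.24) were not called. No gene of 15 for border-associated macrophages was called by limma or by the methods' t-test after adjustment, although 7 had an unadjusted p under 0.05 in limma, 3 of them higher. Over all 18 probes of these genes 1 was called, a second probe of Siglec1, the sialoadhesin (0.72 ± 0.16, adjusted p = 0.00834). Counted with the slide as a block, 15 neutrophil, 8 monocyte and 2 lymphocyte genes were called higher, Ncr1 not.

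The endothelial list fell in 22 of 29 genes (75.9%) and rose in 1, Ly6c1, which monocytes also carry (median -1.02). Cldn5, the tight-junction claudin of brain endothelium, had 12.24 to 13.47 (median 12.97) on the PBS arrays and 10.91 to 11.90 (median 11.22) on the IL1B arrays (-1.59 ± 0.23, adjusted p = 4.29e-04), without overlap. Egfl7 had 13.99 to 14.36 (median 14.35) on the PBS arrays and 11.96 to 12.52 (median 12.38) on the IL1B arrays (-1.95 ± 0.11, adjusted p = 5.36e-07), Sox17 fell 3.48-fold, Gja4 3.19-fold and Flt1 2.14-fold. The fall was not uniform: Pecam1 (-0.26), Kdr (-0.08) and Slc2a1 (0.39) were not called, while the largest falls of the list were those of Gja5, Sox18 and Egfl7. With the slide as a block 12 were called lower and the median was -1.43. Of the oligodendrocyte lineage 9 of 22 fell and 2, Mog (0.57 ± 0.16) and Mag (0.57 ± 0.07), rose. Gpr17, which marks precursors, changed by -1.11 ± 0.16, and 1 gene of the list was called lower with that block, Mog not. Mog was not called without IL1B 4 or 5 or PBS 1, 4 or 5 (changes of 0.51 to 0.57). Of 18 pericyte and fibroblast genes 6 fell and 1 rose, again with 1 called lower with the block. The pericyte-list gene that rose was Anpep (0.67 ± 0.09), which granulocytes also carry. The astrocyte list had 3 of 14 higher (Hopx, Vim and Gja1) and a median of -0.64, which was -0.09 without PBS 5 and IL1B 3. Of 16 neuron genes Nefm (at least 1.09-fold) and of 10 erythroid genes Hba-a1 and Hbb-b2 fell. Nefm and Hba-a1 were not called with the slide as a block, and Hba-a1 was not called without IL1B 2, 3, 4 or 5 or PBS 1, 2 or 6 (changes of -0.84 to -0.73).

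Whether the response had the same size at P10 was asked by an interaction over the 24 CD11B+ arrays. The response at P5 was more positive than at P10 for 1846 of 23466 genes (7.87%) and more negative for 3685 (15.7%). Counted in probes these were 3506 and 5872, or 1054 and 1542 with the slide as a block. The cell division lists did not share their fall at P10: the replication list had a median of 0.12 (0.14 without PBS 6) and the mitosis list 0.13 (0.14 without PBS 6), and 28 of 30 and 25 of 30 genes were more negative at P5. For Mcm6 the P10 change was 0.16 (0.19 without PBS 6) (interaction adjusted p = 2.46e-08, 2.70e-08 without PBS 6). The endothelial list had -0.31 (-0.28 without PBS 6) at P10, with 15 of 29 genes more negative at P5. The neutrophil list had 1.28 (1.62 without PBS 6), with 15 of 18 more positive at P5, the acute-phase list 0.24 (0.29 without PBS 6) (19 of 35), the lectin and scavenger list 0.24 (0.31 without PBS 6) (16 of 32) and the glucocorticoid list -0.09 (-0.10 without PBS 6) (12 of 20). For Fkbp5 the P10 change was -0.10 (-0.12 without PBS 6) and for Socs3 -0.21 (-0.21 without PBS 6), with interaction adjusted p = 1.48e-10 and 1.53e-10. Nos2, 8.54-fold higher at P5, had -0.38 (-0.42 without PBS 6) at P10 (adjusted p = 2.35e-10).

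Some genes had positive changes at both ages. Serpina3g had a change of 5.60 (6.56 without PBS 6) at P10 (interaction adjusted p = 0.356) and Ifng 3.96 (4.81 without PBS 6) (adjusted p = 0.975). The class I list had a higher median at P10, 1.07 (1.24 without PBS 6). Of its 26 genes 4 were less positive at P5, a share near the 15.7% of all genes. Without PBS 6 these were 13 of 26, against 3896 of all 23466 genes. Disease-associated genes had a median of 0.57 (0.62 without PBS 6) at P10, and 19 of 30 were more negative at P5. Itgax, lower at P5, was 1.28 (1.46 without PBS 6) at P10 (interaction adjusted p = 1.50e-04). Tnf (0.90 (0.96 without PBS 6)) and Il10 (0.89 (1.03 without PBS 6)) at P10 also had changes of opposite sign to those at P5 (interaction adjusted p = 1.02e-05 and 1.63e-05). These p-values are for the difference between the ages, not for the sign of the change at either. Age and the time since the last dose cannot be told apart here.

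**Figure D4:**
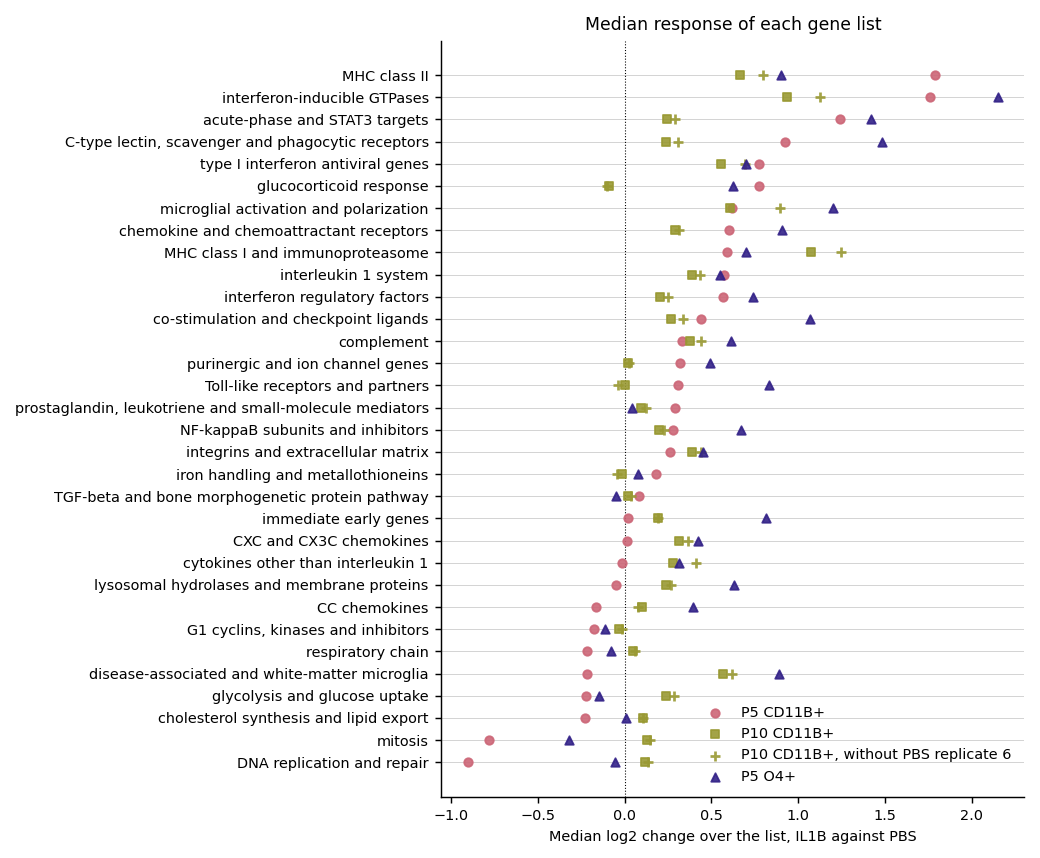
Median log2 change of each gene list for CD11B+ cells at P5, CD11B+ cells at P10 with all arrays and without the array labelled PBS replicate 6, and O4+ cells at P5. The replication and mitosis lists are negative in CD11B+ cells at P5 and near 0 in CD11B+ cells at P10, and the glucocorticoid list is positive at P5 in both cell types and near 0 at P10.

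Per the methods, the O4+ cells came from the same animals, but no label ties single arrays of the 2 fractions, and the interaction treats the 24 arrays as independent. Against O4+ cells of the same age, the CD11B+ response was more positive for 1189 genes (5.07%) and more negative for 2672 (11.4%). In probes these were 2107 and 3858, or 797 and 1457 with the slide as a block. Counted with same-numbered CD11B+ and O4+ arrays as a block, they were 1909 and 3376. In the O4+ fraction the microglia identity list had a median of 0.90, and 28 of 30 of its genes were more negative in CD11B+ cells. Immediate early genes had 0.81 in O4+ cells (25 of 31 more negative in CD11B+ cells) and lysosomal genes 0.63 (22 of 34). That microglial genes moved in the O4+ fraction was given as measured, and the part of microglia in that fraction was not tested. The replication list had -0.05 in O4+ cells and 26 of 30 genes more negative in CD11B+ cells, and mitosis -0.32 with 10 of 30, or 3 with same-numbered arrays as a block. The endothelial list had -0.86 in O4+ cells, with 2 of 29 genes different in each direction. The neutrophil list had a median of 2.00 in O4+ cells and 3.70 in CD11B+ cells. Of its 18 genes 5 were more positive in CD11B+ cells and 2, S100a9 and Lcn2, more negative. The change of S100a9 was 6.22 in O4+ cells and that of Lcn2 6.91. Their CD11B+ minus O4+ differences in response were -3.12 and -2.14 (interaction adjusted p = 0.0146 and 1.06e-04), and that of S100a9 did not pass with the slide as a block. Nt5e (0.06), Slc2a3 (-0.19) and Cd55 (0.07) changed little in O4+ cells, with adjusted p = 1.38e-07, 1.44e-10 and 8.00e-08 for the difference.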

How the data were processed

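RNA of magnetically isolated CD11B+ and O4+ cells was hybridised by the authors, 1 sample per array, to 1-colour mouse arrays whose probe coordinates are in mm9. The deposited scanner files hold, per the file headers, processed signal intensities of Feature Extraction 10.7.3.1, already background-subtracted and detrended but not normalised between arrays. The authors' deposited value matrix holds linear ratios of each spot to a value of its own array, made by a method not given in the sources used here, and served as an alternative only. No column of per-sample values was left unused (0).

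Control and non-uniform spots were removed (97 over the 12 arrays, 278 over all 48), log2 intensities were quantile-normalised over the 24 CD11B+ arrays, and the spots of a probe were averaged, leaving 55681 probes. The quantile normalisation and the fold rule follow the study's methods. The 6 IL1B arrays were set against the 6 PBS arrays in limma 3.58.1 (R 4.3.3), and p-values were adjusted by Benjamini-Hochberg over all probes. They measure the spread between samples only. Interactions used adjusted p under 0.05 without a fold rule, that with O4+ cells after quantile normalisation over 48 arrays. Probes took RefSeq symbols where the accession matched (27235 probes) and the file's name otherwise (32258 named in all). Of the probes, 53.6% to 62.3% were well above background on each array, and 0 were saturated. Each gene is given by its probe with the highest mean signal. The pipeline was tested on simulated data.

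Named in the text are the 15 largest rises and falls with non-overlapping groups and signal on all 12 arrays, the 10 brightest genes measured in 1 group only, list members, and the 8 largest interactions either way, leaving out clone names and some genes that are not reported here. The genes, lists and tests were chosen with earlier results of these data known. Lists have counts and medians and no test. Replicate numbers are shared between groups, but same-numbered PBS and IL1B samples did not deviate together (correlations of -0.07 to 0.05, 0 of 6 over 0.1). They were therefore not paired. CD11B+ and O4+ arrays were not paired either (3 of 12 over 0.1), although 6 of 12 correlated best with their own number. For these the block of same-numbered arrays is given as an alternative. The alternatives were other scalings, background corrections and arrays normalised together, the methods' t-test, other fold rules, slide, scan day and replicate number as blocks, a filter on dim probes, all probes of a list's genes, and each array left out. Analyses without PBS 5 and IL1B 3, and within the scan day holding both groups, and with same-numbered CD11B+ and O4+ arrays as a block, were added after the data had been seen.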

Additional observations from a re-analysis of the deposited data

Results flagged for a closer look

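Of 121 sets of 6 arrays examined for 1 array apart from the rest (the level of a list or named gene in 1 group), 27 had one by Dixon's criterion. For a single set chance gives about 1 in 20. The sets reuse the same arrays, and the lists hold some of the named genes. They are not independent, so the count of 27 cannot be set against that rate. IL1B replicate 3 was the array apart in 4 lists, always as the lowest: the neutrophil markers (mean 12.16), the acute-phase genes (9.41), the interleukin 1 system (9.39) and the C-type lectin and scavenger receptors (11.66). It was also the lowest for 17 genes, at 6.84 for Ankrd22, 13.19 for Csta2, 5.15 for Ggt1, 7.16 for Il1f9, 14.09 for Lcn2, 11.94 for Lrg1, 13.79 for Ltf, 11.53 for Mmp8, 10.40 for Mrgpra2b, 6.14 for Orm1, 6.18 for Orm2, 14.06 for Retnlg, 10.55 for Saa3, 6.33 for Slfn1, 15.30 for Stfa3, 3.68 for Tescl and 12.19 for Wfdc21. PBS replicate 5 was apart as the highest for the pericyte (9.49), astrocyte (10.85), neuron (7.50) and erythroid lists (10.48), and for Upp1 (6.58). PBS replicate 3 was the highest for the T, NK and B cell list (5.84). All calls of these lists were counted again without PBS 5 and IL1B 3, and the probes called were then 2509 higher and 2753 lower.

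Single genes whose response differed most between the ages, by the limma interaction, were, with the P5 response minus the P10 response, Prok2 (5.60), Mrgpra5 (5.40), Prss16, a thymic serine protease (5.32), Il1f9 (5.08), Lrg1 (5.07), Slfn4 (4.91), Cstdc6 (4.87) and Mmp8 (4.66). In the negative direction they were Ddit4l (-3.39), Hs3st2 (-3.24), Twist2 (-3.08), Grb7 (-3.02), Mamdc2 (-3.01), Enpep (-2.999) and Wipf3 (-2.999). With the slide as a block, Cstdc6, Ddit4l, Twist2, Mamdc2 and Enpep no longer passed. After normexp background correction Hs3st2 no longer passed.

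Between cell types at P5, the CD11B+ response minus the O4+ response was largest for Il1f9 (5.41), Slfn4 (5.31), Slc22a20 (5.01), Mrgpra6 (5.00), Tarm1 (4.98), Mrgpra5 (4.90) and Ankrd22 (4.88), and most negative for Lgi2 (-3.70), Hs3st2 (-3.44), Ccdc162 (-3.22), S100a9 (-3.12), Nkx6-3 (-2.48), Cd69 (-2.44) and Plk5 (-2.43). Of these, S100a9, Cd69 and Plk5 no longer passed with the slide as a block, Cd69 not after normexp correction and S100a9 not in the deposited matrix.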

How the results depend on the processing

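With the slide as a block the probes called went from 2258 higher and 2924 lower to 1306 and 977, and within the shared slide alone (4 IL1B arrays against 1 PBS array, which is assumed to vary like the others) to 1192 and 1128. Of 306 called genes the text or its naming rule covers, 77 were lost with the block and 130 within the slide. With the block, 13 replication and 12 endothelial genes and 1 gene each of mitosis and microglia identity were called lower, and 10 interleukin 1 and 8 antiviral genes higher. No called gene among the 306 changed sign under the alternatives computed for them. The block gave 1054 positive and 1542 negative probes in the age interaction (3506 and 5872 without) and 797 and 1457 in the cell-type interaction (2107 and 3858 without). These fits compare fewer arrays, and the cause was not tested.

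Normexp background correction gave 1420 and 1209 (35 of the 306 lost), and leaving out the fold rule 4490 and 7526. The deposited matrix gave 1381 positive and 6543 negative probes in the age interaction, 1024 and 2371 in the cell-type interaction, and 1989 and 3374 in the main comparison, with a gene median of -0.12. The methods' t-test gave 2725 and 3564 before and 2141 and 2693 after adjustment. Leaving out 1 array at a time gave 2113 to 2512 higher and 2612 to 3081 lower probes, with 6 to 13 of the 306 genes lost, 2902 to 4128 and 5253 to 6147 in the age interaction, and 1864 to 2610 and 3484 to 4083 in the cell-type interaction. With the replicate number as a block, 2108 and 2603 probes were called and 9 of the 306 genes lost, and of the 6 pairs 1 correlated best with its own number. A block of same-numbered CD11B+ and O4+ arrays, added after the data had been seen, gave 1909 and 3376 probes in the cell-type interaction, and mitosis genes more negative in CD11B+ cells went from 10 to 3 (correlations of deviations -0.08 to 0.13, 3 of 12 over 0.1, 6 of 12 best with their own number). Genes well above background on no array of a group have bounds only, and where some arrays of a group measured a gene its change rests partly on background signal.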

Other observations

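Outside the named genes, 664 of the probes called higher and 566 of those called lower carried no gene name, among them the chromosome 13 probes described above.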
